A study of Mus musculus with 4 samples.

Results

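The 58 genes described here replicate DNA, drive mitosis or time both steps. They were taken from a fixed list of gene symbols, out of 23990 symbols in the deposited tables. By what their products do, 28 act at the G1/S transition or in S phase, 26 act in G2 and mitosis, and 4 (Ccnd2, Ccnd3, Cdkn1a and Cdkn1b) regulate cyclin-dependent kinases (CDKs) in G1. All 58 had a mean of at least 1 FPKM (fragment counts divided by transcript length and library size) in 1 or both tissues and so were among the 10634 genes tested. Effector CD4 cells (CD44+CD4) came from wild type C57BL/6 mice in which immunization with the myelin antigen MOG had induced EAE, a mouse model of MS. At disease onset, cells were sorted from the spinal cord (CNS, 2 libraries) and from pooled draining lymph nodes (dLN, 2 libraries). Genotype, strain and immunization were shared by both tissues, and no untreated group entered the comparison. The labels give no age, and they do not say which mice went into which library, so p-values here measure only the spread between these libraries, which may be technical. The study's methods describe a stimulation of the sorted cells with PMA and ionomycin, whereas the sample labels name none. Should it have differed between the tissues, its effect and that of the tissue cannot be told apart.

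A T cell that has been activated by antigen divides many times before it becomes an effector cell. D cyclins with Cdk4 or Cdk6 phosphorylate the retinoblastoma (Rb) proteins, which frees E2F factors to switch on cyclin E and the replication machinery, and CDK inhibitors such as p27 (Cdkn1b) and p21 (Cdkn1a) hold this step back. After S phase, B-type cyclins with Cdk1, the Polo and Aurora kinases, kinesins and centromere proteins carry out mitosis, and most of their mRNAs peak late in the cycle, when the DREAM and MMB complexes and FoxM1 act on CHR and CCAAT elements of their promoters. RNA from a mixed population shows the sum over cycling and resting cells, so fewer cycling cells and less RNA per cell cannot be told apart here.

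Among the 58 members, the largest log2 ratios between CNS and dLN effector CD4 cells were those of Ccnd3 and Cdkn1b, both regulators of G1. Ccnd3, a D cyclin, was 8.78-fold higher in CNS by the ratio of mean FPKM, Cdkn1b was 6.63-fold higher, and Ccnd2, the other D cyclin of the list, was at 0.436 times its dLN level. Of the 28 G1/S members, 12 were higher and 1 was lower in CNS, with E2f2, Tk1 and Ccne1 in front. With the same FPKM sum in each library these counts were 8 higher and 4 lower (all 58 members, 10 higher and 6 lower in place of 16 and 2). Of the 26 G2/M members, 2 (Ccnb2 and Nusap1) were higher and none was lower by limma, while at an unadjusted limma p under 0.05 the class had 2 higher and 1 lower (Ccnb1). The 2 dLN libraries differed from each other in the mitotic genes. On the scale log2(FPKM + 1), 25 of the 26 G2/M members were at least 1.5-fold higher in dLN replicate 1 than in replicate 2. This was the case for 3.03% of all genes tested. These counts read against a background in which 74.9% of all tested genes were called between the tissues (limma, Benjamini-Hochberg adjusted p under 0.05), 37.8% higher and 37.2% lower in CNS. The G1/S members were called higher in 42.9% and lower in 3.57% of cases.

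The 4 libraries held an estimated 18.5 M to 22 M fragments, which put between 52 and 17678 fragments behind each member in each library. T-cell markers summed to 3100 and 3120 FPKM in the CNS libraries and to 1440 and 1350 FPKM in the dLN libraries, with none of the 8 at 0. Myeloid markers summed to 27.4 FPKM in CNS replicate 1 and 422 FPKM in CNS replicate 2, against 4.66 and 3.95 FPKM in dLN. Of the 16 myeloid markers in the tables, 1 was listed at 0 in CNS replicate 1, none in CNS replicate 2, and 10 and 12 in the dLN libraries. CD8 T-cell and NK-cell markers (3.58 to 10.1 FPKM) and those of B cells and plasma cells (1.58 to 3.07 FPKM), of dendritic cells (2.11 to 14.9 FPKM) and of endothelial and erythroid cells (9.66 to 26.1 FPKM) were low in all 4 libraries. Glial and neuronal markers summed to between 51.3 and 58.1 FPKM, most of it Mbp, which was at 44.5 to 57.7 FPKM in all libraries. Of these 11 markers, none was listed at 0 in CNS replicate 1, 1 in CNS replicate 2, and 7 in each dLN library. Y-linked transcripts were read only in CNS and Xist mainly in dLN, so that the sex of the mice and the tissue cannot be told apart.

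Promoter sequences show what the mitotic genes share that the list did not use. RefSeq windows of mouse build GRCm38.p6, from 250 bases before to 50 bases after each transcription start, were found for 48 of the 58 members. Mcm4, Gins1, Gins2, Ccne2, Ccna2, Aurkb, Kif20a, Tpx2, Foxm1 and Ccnd2 had no entry. Exact letters were searched on both strands, CCAAT for the CCAAT box, TTTGAA for the CHR element, and TTTCCCGC, TTTCGCGC, TTTGCCGC or TTTGGCGC for E2F, where matches of E2F letters can overlap each other. A CCAAT box stood in 18 of 21 G2/M members (85.7%), in 14 of 24 G1/S members (58.3%) and in 41.1% of all 27025 genes of the table. The CHR letters stood in 15 of 21 G2/M members (71.4%), in 4 of 24 G1/S members (16.7%) and in 20.2% of all genes. Both elements occurred together in 71.4% of the G2/M members and in 7.97% of all genes. The E2F letters ran the other way, with 10 of 24 G1/S members (41.7%), 1 of 21 G2/M members (4.76%, Cdk1) and 2.60% of all genes. Among the 8552 tested genes with an entry, 43.3% had a CCAAT box, 14.4% CHR letters, 6.01% both and 5.0% E2F letters. The CHR share of G1/S members and the E2F share of G2/M members were thus near those of the tested genes. Among the 3 CDK regulators with an entry, Ccnd3 and Cdkn1b had a CCAAT box and none had CHR or E2F letters. A match describes letters in this window and is not a measured binding site.

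Below are 150 bases upstream of the start, 5′ to 3′ on the gene's strand, for 4 G2/M members with both elements in this stretch. Among such members they differed most between the dLN libraries by FPKM. Mki67, level with Cdc20 and Top2a at 1.94-fold, is not printed. Capitals mark CCAAT and CHR letters on either strand. Ube2c lies at chr2:164769779-164769928 (+), Kif11 at chr19:37376232-37376381 (+), Cdc20 at chr4:118437344-118437493 (-) and Top2a at chr11:99024190-99024339 (-).
Ube2c: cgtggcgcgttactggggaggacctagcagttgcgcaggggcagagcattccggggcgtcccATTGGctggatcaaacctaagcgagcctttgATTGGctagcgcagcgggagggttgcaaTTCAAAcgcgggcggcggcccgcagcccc
Kif11: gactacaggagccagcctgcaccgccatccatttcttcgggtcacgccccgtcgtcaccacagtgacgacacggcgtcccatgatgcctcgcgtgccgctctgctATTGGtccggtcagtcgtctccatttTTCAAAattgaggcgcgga
Cdc20: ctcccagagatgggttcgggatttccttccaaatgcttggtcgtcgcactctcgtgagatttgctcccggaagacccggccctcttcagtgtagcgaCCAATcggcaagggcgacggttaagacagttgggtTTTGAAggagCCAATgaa
Top2a: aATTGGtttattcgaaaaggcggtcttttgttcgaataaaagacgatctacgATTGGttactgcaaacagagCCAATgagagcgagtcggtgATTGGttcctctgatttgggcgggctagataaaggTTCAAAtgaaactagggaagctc
In each of these 4 printed stretches the CHR letters lie close to the start, and at least 1 CCAAT box lies farther upstream. In Mki67 the CHR letters lie farther from the start, at bases -116 to -111 and -98 to -93. Top2a has a further CHR match beyond the stretch, at bases -179 to -174.

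For comparison, the same stretch is given for the 3 G1/S members with the highest log2 ratio among those with E2F letters in it. Here only the E2F letters are in capitals. CCAAT letters, left in lower case, also stand in Pola1 (bases -37 to -33) and in Mcm6 (-57 to -53 and -14 to -10). Pola1 lies at chrX:93632156-93632305 (-), Cdc6 at chr11:98908001-98908150 (+) and Mcm6 at chr1:128359706-128359855 (-).
Pola1: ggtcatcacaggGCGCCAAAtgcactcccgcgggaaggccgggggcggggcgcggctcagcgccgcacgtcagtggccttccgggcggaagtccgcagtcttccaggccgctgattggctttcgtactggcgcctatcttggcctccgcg
Cdc6: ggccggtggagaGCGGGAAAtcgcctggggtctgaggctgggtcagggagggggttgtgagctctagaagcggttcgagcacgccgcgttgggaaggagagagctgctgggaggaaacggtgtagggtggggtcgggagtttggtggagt
Mcm6: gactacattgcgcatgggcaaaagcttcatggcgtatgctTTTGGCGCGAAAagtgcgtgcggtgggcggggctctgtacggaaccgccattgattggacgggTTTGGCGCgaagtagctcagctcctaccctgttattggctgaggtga
In the Mcm6 promoter the first run of capitals holds 2 overlapping matches, 1 on each strand.

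**Figure D1:**
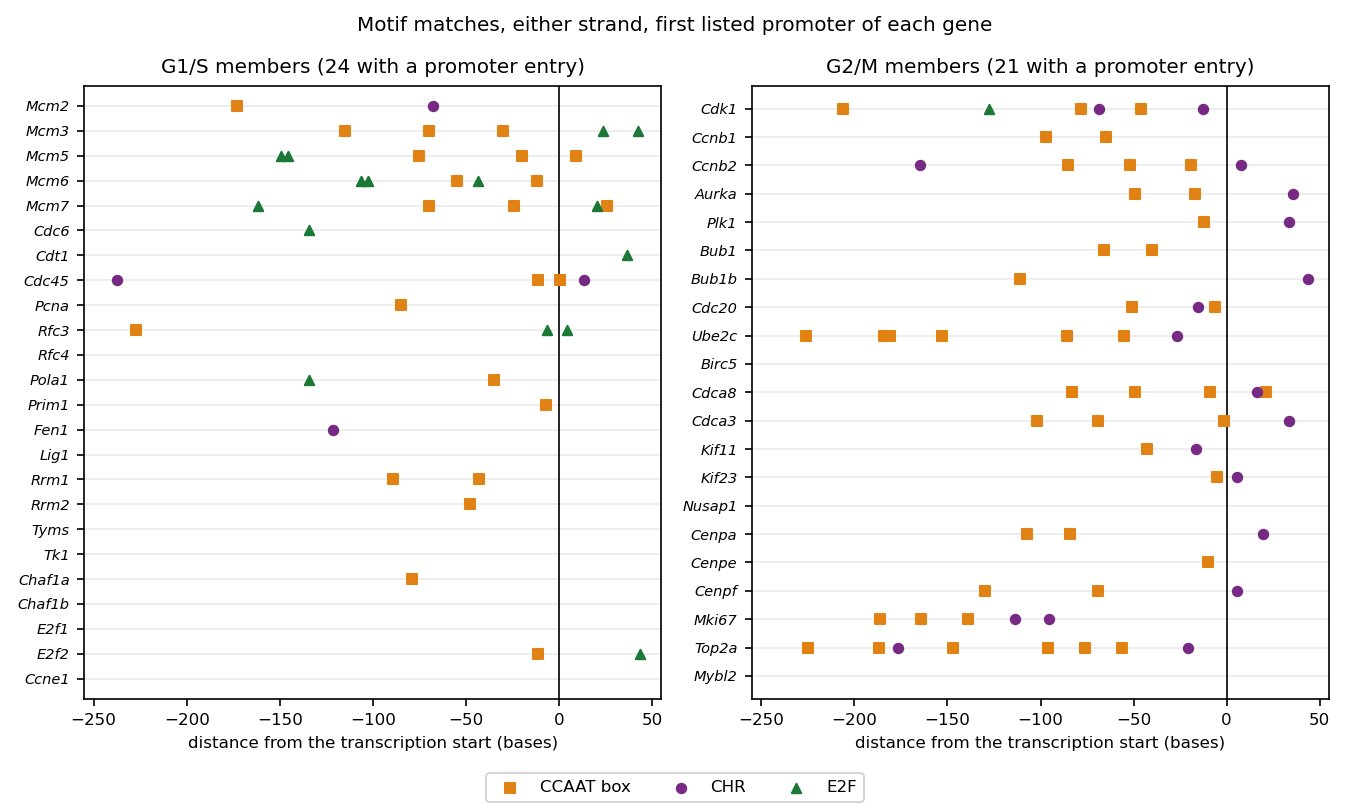
Position of CCAAT, CHR and E2F letters in the first listed promoter of each member, as bases from the transcription start (x axis), with G1/S members on the left and G2/M members on the right. Purple circles (CHR) lie mostly in the G2/M panel, where 15 of 21 members hold both CCAAT and CHR letters. Green triangles (E2F) lie almost wholly in the G1/S panel. Orange squares (CCAAT) stand in both panels, in 18 of 21 G2/M members and in 14 of 24 G1/S members. Members with more than 1 listed promoter are counted in the text over all of them.

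The first question was how the G1 decision differed between the tissues. In what follows, the 4 values of a gene are its FPKM in CNS replicate 1, CNS replicate 2, dLN replicate 1 and dLN replicate 2, and log2 ratios are CNS over dLN on the scale log2(FPKM + 1), which understates the change of low genes. Ccnd3 (cyclin D3, mm10 chr17:47505051-47599688) was at 134, 140, 18.9 and 12.3 FPKM. Both CNS libraries lay far above both dLN libraries, with means of 137 ± 4.25 and 15.6 ± 4.68 FPKM (SD, n = 2), and the log2 ratio was 3.08 with a standard error (SE) of 0.20 (limma adjusted p = 0.000229). Ccnd2 (cyclin D2, chr6:127125709-127151048) was at 56.1, 63.3, 130.0 and 144 FPKM. It ran in the opposite direction, with a log2 ratio of -1.19 (SE 0.10, limma adjusted p = 0.000468). Ccnd3 was therefore read at 2.39 and 2.22 times the level of Ccnd2 in CNS and at 0.145 and 0.0857 times its level in dLN, and the sum of both was 190 and 204 FPKM in CNS and 149 and 156 FPKM in dLN. In both tissues most of the Ccnd3 signal was assigned to the shorter RefSeq transcript (chr17:47593467-47599688), with 84.4% and 88.8% in CNS and 98.8% and 98.0% in dLN. One of the transcripts that span the whole locus was at 14.9 and 12.3 FPKM in CNS and at most 0.222 FPKM in dLN. These transcripts overlap, and the split between them is an estimate of the program that made the FPKM.

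Cdkn1b, which encodes the CDK inhibitor p27 (chr6:134920401-134925525), was at 48.8, 49.6, 7.93 and 6.93 FPKM. Its log2 ratio of 2.58 (SE 0.10, limma adjusted p = 8.98e-05) was the second largest of the 58 members. Cdkn1a, which encodes p21, was at 31.8, 55.1, 33.9 and 28.5 FPKM. The groups overlapped, since CNS replicate 1 lay between the dLN libraries and CNS replicate 2 above both (log2 ratio 0.42, limma adjusted p = 0.218). Without CNS replicate 1 the log2 ratio was 0.81 and passed the test (limma adjusted p = 0.0281), and without CNS replicate 2 it was 0.03. CNS replicate 2 is also the library with the high myeloid sum (422 against 27.4 FPKM), and the part of such cells in its Cdkn1a level was not tested. The 3 other CDK regulators kept their direction and their call under every alternative fit.

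Other genes of the CDK and Rb pathway were taken from a list of 28, of which 26 were tested. In CNS, 9 of them were higher and 10 lower (median log2 ratio -0.07, against 0.05 for all genes). These shares, 34.6% higher and 38.5% lower, are near the 37.8% and 37.2% of all genes, and nothing is read from the count of the list. All 3 genes of the Rb family, which bind E2F and repress cell-cycle genes, were among the higher ones. Rbl2 (p130), the family member of resting cells, was at 57.6, 48.3, 5.86 and 3.42 FPKM (log2 ratio 3.29, limma adjusted p = 0.000279). Rb1 had a log2 ratio of 1.74 and Rbl1 (p107) one of 1.53. Of the genes that encode INK4 inhibitors of Cdk4 and Cdk6, 3 were higher in CNS. The value of a gene, Cdkn2a among them, sums all its transcripts, whatever product each encodes. Cdkn2d (p19) was at 59.8, 65.4, 8.22 and 2.59 FPKM, with the largest log2 ratio of the list (3.47, limma adjusted p = 0.00174). Cdkn2a and Cdkn2c had log2 ratios of 1.83 and 1.63, while Cdkn2b, at 1.81, 1.08, 0.761 and 0.899 FPKM, did not pass the test (limma adjusted p = 0.121). Cdk4, a target kinase of INK4 inhibitors, was at 55.8, 54.7, 196 and 205 FPKM. This gave the largest fall of the list (log2 ratio -1.84, limma adjusted p = 9.15e-05). Cdk6 fell as well, by 0.62 on the log2 scale. E2F5, E2F4 and E2F6, factors known mainly as repressors, were lower in CNS, with log2 ratios of -1.74 for E2f5, -1.21 for E2f4 and -1.0 for E2f6. Tfdp1, the usual DNA-binding partner of E2F, had a log2 ratio of -1.65. Tfdp2, another such partner, ran the other way, at 2.98, 2.65, 0.436 and 0.308 FPKM (log2 ratio 1.48, limma adjusted p = 0.000636).

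**Figure D2:**
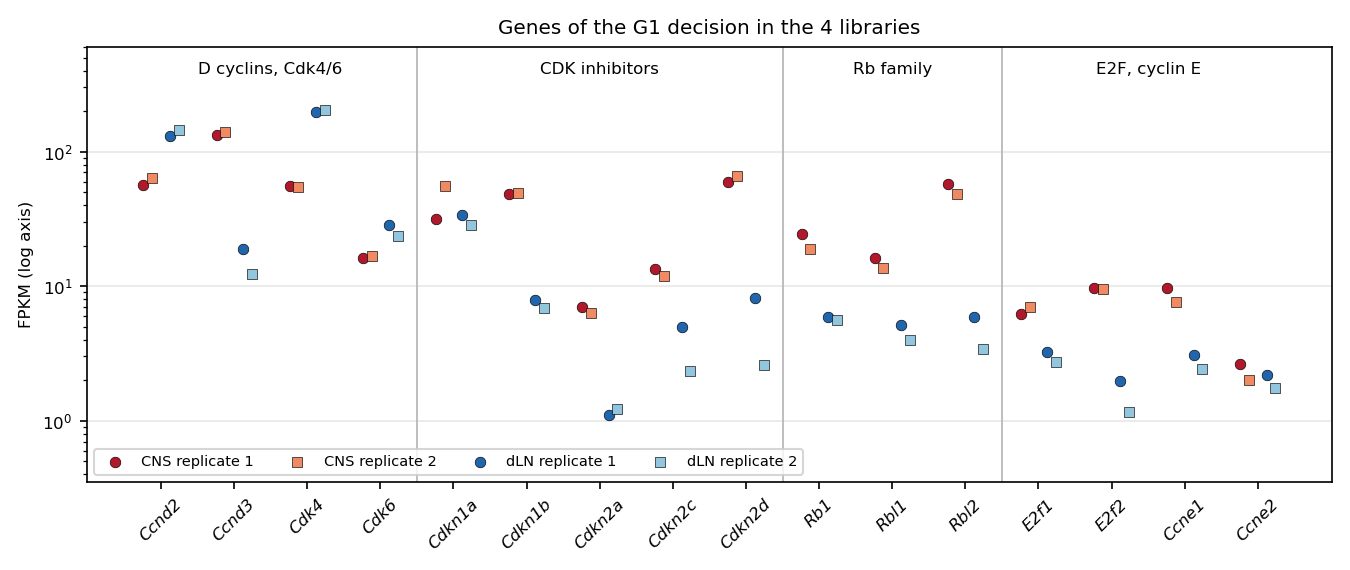
FPKM (log axis) of D cyclins and their kinases, CDK inhibitors, Rb family genes, and E2F and cyclin E genes in the 4 libraries, with CNS in red tones, dLN in blue tones, circles for replicate 1 and squares for replicate 2. The CNS and dLN points part in opposite directions for Ccnd3 (134 and 140 against 18.9 and 12.3 FPKM) and Ccnd2 (56.1 and 63.3 against 130.0 and 144 FPKM), and Cdkn1b, Cdkn2d and Rbl2 sit higher in CNS while Cdk4 sits lower.

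Among the 28 G1/S members, 13 (46.4%) were called, a smaller share than the 74.9% of all genes, and the median log2 ratio was 0.41. In 16 members both CNS libraries lay above both dLN libraries (45.7% of all genes), in 5 below (43.7%), and in 7 the groups overlapped, whereas 89.4% of all genes did not overlap. The factors that start S phase are given first. E2f2, an activating E2F factor (chr4:136172394-136196056), was at 9.73, 9.53, 1.97 and 1.17 FPKM. Its log2 ratio of 2.07 (SE 0.17, limma adjusted p = 0.000439) was the largest of the class, a 6.13-fold difference of the means. E2f1, another activating E2F factor, was at 6.24, 7.01, 3.22 and 2.75 FPKM (log2 ratio 0.94, limma adjusted p = 0.00165). E2f3, the remaining activator of the family and no member of the list, ran the other way, at 2.44, 2.13, 4.84 and 4.35 FPKM (log2 ratio -0.77, limma adjusted p = 0.00318). Ccne1, the cyclin E gene that fires Cdk2, was at 9.69, 7.64, 3.08 and 2.43 FPKM (log2 ratio 1.36, limma adjusted p = 0.00121). Its paralog Ccne2 was at 2.65, 2.0, 2.20 and 1.74 FPKM, where the groups overlapped and the 95% interval of the log2 ratio ran from -0.26 to 0.59. E2f1, E2f2 and Ccne1 were thus 2.22-fold to 6.13-fold higher in CNS by their means, and Ccne2 was not called.

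The licensing and firing factors load the helicase at origins and start it. Cdt1, which recruits the MCM ring, was at 23.2, 26.4, 9.64 and 11.6 FPKM (log2 ratio 1.15, limma adjusted p = 0.00105). Cdc6, its partner in loading, was at 2.37, 2.20, 1.55 and 1.28 FPKM (log2 ratio 0.44, limma adjusted p = 0.0298). The Cdc6 call was lost without CNS replicate 1 (adjusted p = 0.0645), dLN replicate 1 (0.0552) or dLN replicate 2 (0.125), and with the same FPKM sum (log2 ratio 0.32, adjusted p = 0.0885). The helicase cofactors were not called. Cdc45 was at 7.69, 7.16, 8.26 and 5.26 FPKM, with the CNS libraries between the dLN libraries. Gins2 was at 7.92, 6.99, 7.80 and 5.57 FPKM, also with overlap. Both leaned on dLN replicate 2, and without it their log2 ratios were -0.14 and -0.06 in place of 0.15 for each. Gins1, of the same GINS complex, was at 2.91, 2.69, 3.24 and 3.23 FPKM (log2 ratio -0.16, limma adjusted p = 0.236).

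The 6 MCM genes, which encode the subunits of the replicative helicase, did not move as a block. Mcm4 was at 35.2, 28.8, 21.7 and 20.9 FPKM and higher in CNS (log2 ratio 0.56, limma adjusted p = 0.0107). Mcm7 was at 33.3, 31.3, 25.3 and 24.2 FPKM and higher as well (log2 ratio 0.37, limma adjusted p = 0.0131). Mcm3 was at 29.8, 30.4, 44.7 and 40.9 FPKM, the single G1/S member called lower (log2 ratio -0.49, limma adjusted p = 0.00528), and it kept that call under every fit without a minimum fold. The other subunits lay close together in all 4 libraries. Mcm2 was at 29.1, 29.2, 30.9 and 29.2 FPKM, and the 95% interval of its log2 ratio was -0.26 to 0.17. Mcm5 was at 25.8, 28.4, 32.0 and 30.3 FPKM (interval -0.44 to 0.05). Mcm6, the most abundant subunit, was at 58.6, 54.6, 61.4 and 58.6 FPKM (interval -0.30 to 0.14). Calls of the MCM genes turned on scaling and single libraries. With the same FPKM sum in each library, Mcm4 (log2 ratio 0.37) and Mcm7 (0.18) were no longer called, and Mcm5 (-0.38) and Mcm6 (-0.28) were called lower, Mcm5 also by its highest transcript (-0.29). Mcm4 was not called without dLN replicate 2 (adjusted p = 0.0618), nor Mcm7 without dLN replicate 1 (0.0526) or dLN replicate 2 (0.0801).

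Of the 7 genes of the replication fork, 3 were higher in CNS. Lig1, the ligase that joins Okazaki fragments, was at 25.1, 22.4, 9.91 and 8.07 FPKM (log2 ratio 1.31, limma adjusted p = 0.000692). Pola1, the catalytic subunit of polymerase alpha, was at 7.64, 6.22, 3.42 and 2.55 FPKM (log2 ratio 1.0, limma adjusted p = 0.0038). Pola1 is X-linked, and sex-linked transcripts followed the same split of the libraries. Prim1, the primase subunit of the same complex, was at 10.8, 8.57, 6.69 and 5.04 FPKM (log2 ratio 0.64, limma adjusted p = 0.0221). The Prim1 call was lost without CNS replicate 1 (adjusted p = 0.143), CNS replicate 2 (0.0581) or dLN replicate 2 (0.103), with no filter (0.0647) and with the same FPKM sum (0.0662). Pcna, the sliding clamp, was the most abundant G1/S member and nearly equal in all libraries, at 205, 202, 214 and 217 FPKM (log2 ratio -0.08, 95% interval -0.27 to 0.10). With the same FPKM sum in each library it was called lower (log2 ratio -0.28, adjusted p = 0.0227). Fen1, the flap nuclease, was at 16.9, 17.2, 19.4 and 15.6 FPKM (log2 ratio -0.03), and at 0.12 without dLN replicate 1. The clamp loader genes parted between the dLN libraries. Rfc3 was at 11.2, 10, 15.7 and 11.3 FPKM (log2 ratio -0.31, limma adjusted p = 0.161), and was called lower without dLN replicate 2 (-0.52, adjusted p = 0.0407). Rfc4 was at 10.3, 9.83, 9.13 and 5.49 FPKM (log2 ratio 0.45, limma adjusted p = 0.129), and was called higher without dLN replicate 1 (0.77, adjusted p = 0.0117).

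Nucleotide supply and chromatin assembly complete the class. Tk1, the salvage thymidine kinase, was at 15.2, 14.8, 6.03 and 3.52 FPKM, next after E2f2 in the class (log2 ratio 1.51, limma adjusted p = 0.00278). Tyms, which makes dTMP, was at 9.28, 6.38, 5.58 and 4.45 FPKM, with a log2 ratio of 0.54 and a limma adjusted p of 0.0576. Rrm2, the regulated subunit of ribonucleotide reductase, was at 33.3, 26.5, 25.0 and 12.1 FPKM (log2 ratio 0.73, limma adjusted p = 0.11). Its partner Rrm1 was at 21.4, 19, 18.3 and 13.6 FPKM (log2 ratio 0.33, limma adjusted p = 0.119). In all 4 genes both CNS libraries lay above both dLN libraries, and only Tk1 was called. Tyms was called higher without CNS replicate 2 (log2 ratio 0.78, adjusted p = 0.0436), with the same upper quartile (0.66, 0.0305), with median-of-ratios scaling (0.52, 0.0454) and by its highest transcript (0.62, 0.0327). Rrm1 was called with the same upper quartile (0.46, 0.0428), and Rrm2 (1.23, 0.009) and Rrm1 (0.54, 0.035) without dLN replicate 1. Chaf1b, the p60 subunit of the histone chaperone CAF-1, was at 11.6, 10.2, 3.97 and 3.77 FPKM (log2 ratio 1.29, limma adjusted p = 0.000416). Chaf1a, the p150 subunit, was at 5.36, 5.90, 5.77 and 4.32 FPKM, with overlap (log2 ratio 0.14, and -0.03 without dLN replicate 2). With each library left out in turn, 8 members (E2f2, Tk1, Ccne1, Lig1, Chaf1b, Cdt1, Pola1 and E2f1) kept the largest log2 ratios of the class. Their lowest values ran from 0.84 (Pola1) to 1.84 (E2f2). How many of all genes kept ratios of that size was not counted.

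**Figure D3:**
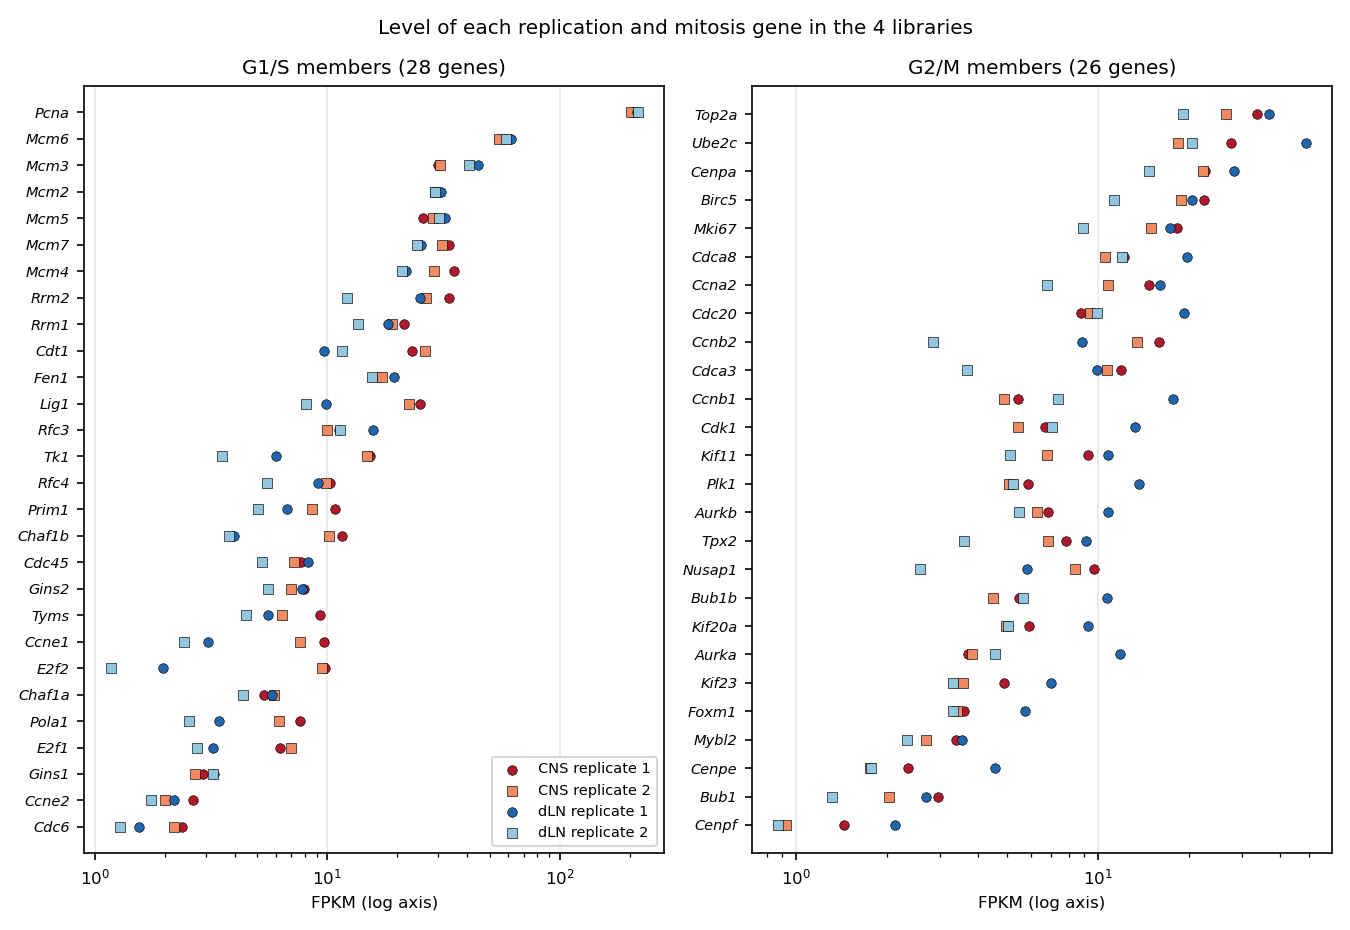
FPKM (log axis) of each G1/S member (left) and G2/M member (right) in the 4 libraries, ordered by mean level, with CNS in red tones, dLN in blue tones, circles for replicate 1 and squares for replicate 2. In the right panel dLN replicate 1 lies to the right of dLN replicate 2 for all 26 members, with the CNS points between them in many rows, while in the left panel E2f2 (9.73 and 9.53 against 1.97 and 1.17 FPKM), Tk1 and Chaf1b show both CNS points above both dLN points.

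Of the 26 G2/M members, 2 (7.69%) were called, against 74.9% of all genes, and their median log2 ratio was -0.17. The median standard error was 0.31 in this class and 0.14 in the G1/S class. The groups overlapped in 18 members, where 89.4% of all genes did not overlap. The mitotic cyclins went separate ways. Ccnb2 (cyclin B2, chr9:70407689-70421554) was at 15.9, 13.5, 8.89 and 2.84 FPKM, with a log2 ratio of 1.34 (SE 0.45, limma adjusted p = 0.0448). Ccnb1 (cyclin B1, chr13:100778739-100786486) was at 5.43, 4.89, 17.7 and 7.37 FPKM. Both dLN libraries lay above the CNS libraries, but the log2 ratio of -1.03 did not pass the test (SE 0.39, limma adjusted p = 0.0619). The ratio of Ccnb2 to Ccnb1 within a library was 2.92 and 2.77 in CNS and 0.501 and 0.385 in dLN, so it differed far more between the tissues than between libraries of one tissue. Ccna2 (cyclin A2) was at 14.8, 10.8, 16.1 and 6.79 FPKM, with both CNS libraries between those of dLN.

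The mitotic kinases were not called. Cdk1, the partner of the B cyclins, was at 6.67, 5.46, 13.3 and 7.04 FPKM (log2 ratio -0.61, limma adjusted p = 0.117). Plk1, the Polo kinase, was at 5.89, 5.09, 13.7 and 5.25 FPKM (log2 ratio -0.56). Aurka, the spindle pole Aurora kinase, was at 3.72, 3.83, 11.8 and 4.57 FPKM (log2 ratio -0.82, limma adjusted p = 0.119). In all 3, dLN replicate 1 stood well apart from the other libraries. Aurkb, the Aurora kinase of the chromosomal passenger complex, was at 6.83, 6.30, 10.8 and 5.49 FPKM (log2 ratio -0.21). Birc5 (survivin), of the same complex, was at 22.4, 18.9, 20.5 and 11.3 FPKM. Cdca8 (borealin), another of its subunits, was at 12.2, 10.6, 19.8 and 12 FPKM. Cdca3, which triggers mitotic entry, was at 11.9, 10.7, 9.95 and 3.68 FPKM, where both CNS libraries lay above dLN (log2 ratio 0.78, limma adjusted p = 0.141). Of the passenger genes, Birc5 thus had both CNS libraries near dLN replicate 1, and Cdca8 had both near dLN replicate 2.

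Checkpoint and anaphase-promoting complex (APC/C) genes followed. Bub1, a checkpoint kinase at kinetochores, was at 2.95, 2.04, 2.69 and 1.32 FPKM. Bub1b (BubR1) was at 5.48, 4.51, 10.7 and 5.64 FPKM (log2 ratio -0.56, limma adjusted p = 0.135). Cdc20, the APC/C activator, was at 8.78, 9.42, 19.3 and 9.94 FPKM (log2 ratio -0.56, limma adjusted p = 0.149). For Bub1b and Cdc20 the CNS libraries were the lowest of the 4, with dLN replicate 2 just above them. Ube2c, the ubiquitin-conjugating enzyme of the APC/C, was at 27.7, 18.5, 48.8 and 20.5 FPKM, the highest level of the class in any library. Its 95% interval (log2 ratio -1.61 to 0.67) was wide on either side of 0.

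Spindle genes had the other called member. Nusap1, a microtubule-binding protein of the spindle, was at 9.71, 8.38, 5.81 and 2.57 FPKM (log2 ratio 1.02, SE 0.32, limma adjusted p = 0.0352). Tpx2, which activates Aurora A on the spindle, was at 7.84, 6.85, 9.12 and 3.60 FPKM (log2 ratio 0.29). The kinesins were not called. Kif11 (Eg5), which pushes spindle poles apart, was at 9.26, 6.78, 10.8 and 5.10 FPKM (log2 ratio 0.08). Kif20a, of the central spindle, was at 5.92, 4.97, 9.29 and 5.03 FPKM (log2 ratio -0.29). Kif23, which acts in cytokinesis, was at 4.88, 3.58, 6.98 and 3.31 FPKM (log2 ratio -0.18). For all 3 kinesins the groups overlapped. Cenpa, the centromeric histone, was at 22.6, 22.3, 28.3 and 14.8 FPKM (log2 ratio 0.12). Cenpe, a kinetochore motor, was at 2.35, 1.76, 4.55 and 1.77 FPKM (log2 ratio -0.37). Cenpf, a large kinetochore protein, was at 1.44, 0.927, 2.13 and 0.875 FPKM (log2 ratio -0.16). The centromere genes again had dLN replicate 1 as the highest library.

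The common marker of proliferation, Mki67, was at 18.3, 15, 17.4 and 8.96 FPKM (log2 ratio 0.38, limma adjusted p = 0.315). Top2a, the mitotic topoisomerase and the member of the class with the second highest mean in dLN, was at 33.6, 26.6, 36.9 and 19.1 FPKM (log2 ratio 0.16, limma adjusted p = 0.668). For both genes dLN replicate 2 was the lowest library, and the CNS libraries differed from each other as well. Foxm1, a transcription factor of the mitotic genes, was at 3.61, 3.42, 5.74 and 3.32 FPKM (log2 ratio -0.26). Mybl2 (B-Myb), which joins it on these promoters, was at 3.39, 2.69, 3.56 and 2.34 FPKM (log2 ratio 0.05), and counting it with the G1/S members changed no count of calls.

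**Figure D4:**
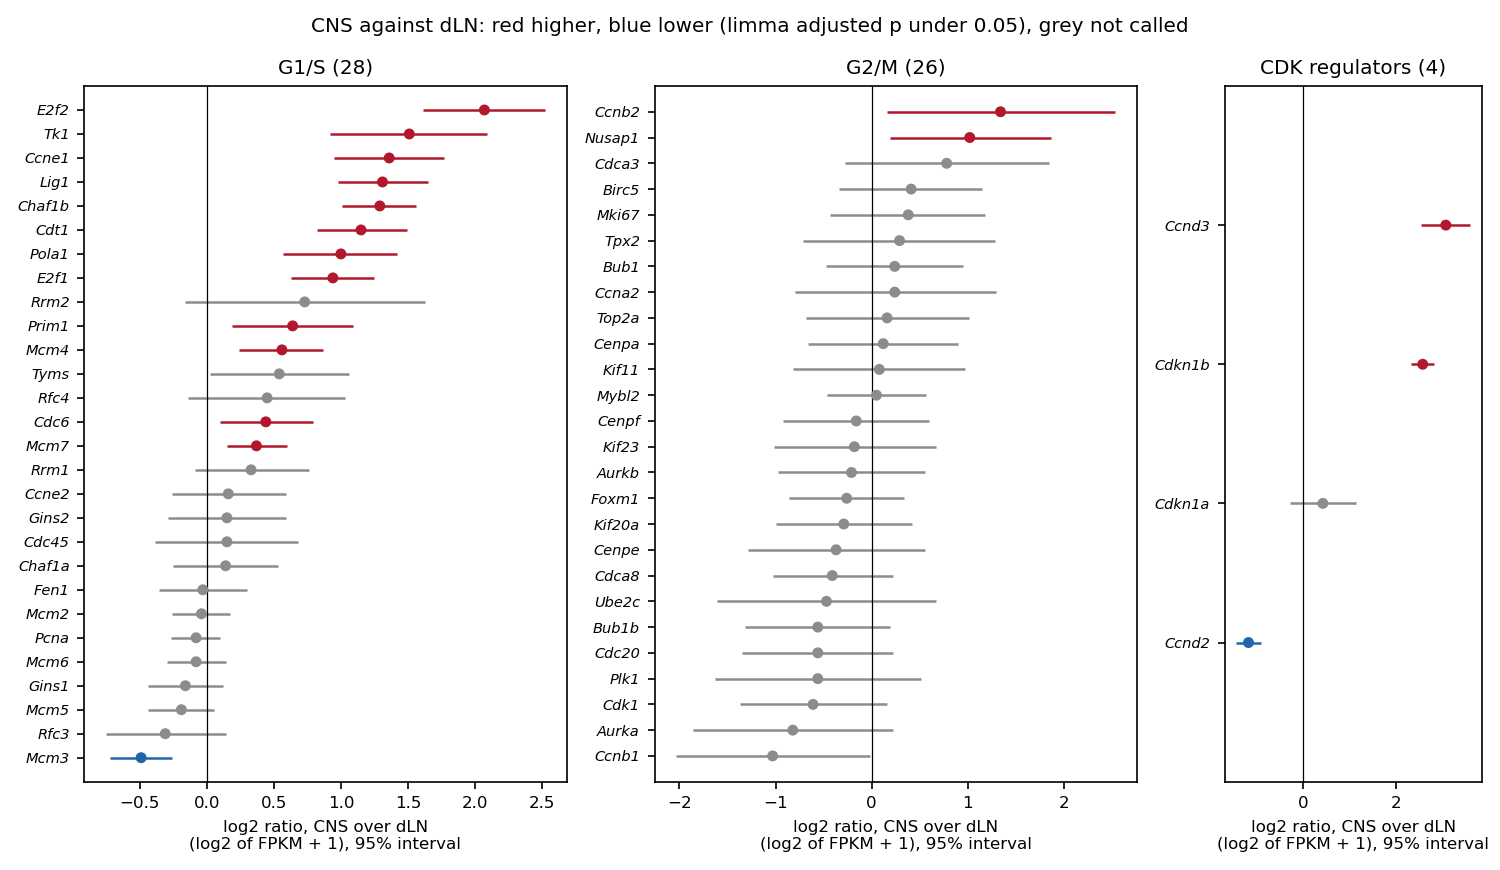
Log2 ratio of CNS over dLN on the log2(FPKM + 1) scale (x axis) with its unadjusted 95% interval for each member, by class, where red marks members called higher, blue members called lower and grey members not called (limma adjusted p under 0.05). The G1/S panel holds 12 red points and 1 blue point, the G2/M panel 2 red points and otherwise wide intervals, and the CDK regulator panel Ccnd3 at 3.08, Cdkn1b at 2.58, Cdkn1a at 0.42 and Ccnd2 at -1.19.

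Within this class the dLN libraries differed from each other more than the CNS libraries did. This replicate comparison was chosen after the values had been seen, and it describes 2 libraries without a test. All 26 G2/M members were higher in dLN replicate 1 than in dLN replicate 2 (61.6% of all genes were). On the log2(FPKM + 1) scale, which also holds for the folds below, 25 were at least 1.5-fold higher. Mybl2 was the exception at 0.45, though it was 1.52-fold higher by FPKM. The median difference was 0.89 on the log2 scale and the largest was that of Ccnb2 (1.37). The median over all genes was 0.05. Of the 55 tested mitotic genes outside the 58 members, 39 (70.9%) were at least 1.5-fold higher in dLN replicate 1 as well, with a median of 0.72. The G1/S members had a median difference of 0.26, and 3 of 28 (Rrm2, Tk1 and Rfc4) passed 1.5-fold, as did 2 of 44 other replication genes. By FPKM without the added 1, E2f2 (1.68-fold) and Cdc45 (1.57-fold) passed as well. In all, 322 genes were at least 1.5-fold higher in dLN replicate 1, and the members and pathway lists together held 72 (22.4%) of them. Between the CNS libraries, 24 of the 26 G2/M members were higher in replicate 1 (45.4% of all genes were), and the median difference was 0.22. None differed by 1.5-fold in either direction (0.357% of all genes were so higher and 4.92% so lower). By FPKM without the added 1, Cenpf did, at 1.44 and 0.927 FPKM. Summed over the class, G2/M members reached 273 and 228 FPKM in CNS and 365 and 174 FPKM in dLN, while G1/S members reached 668 and 633 FPKM in CNS and 600 and 546 FPKM in dLN. As a percent of the G1/S sum, the G2/M sum was 41.0 and 36.0 in CNS and 60.8 and 32.0 in dLN, so both CNS libraries lay between the dLN libraries. The estimated depth of the dLN libraries was 18.5 M and 22 M fragments, and their part in the difference was not tested.

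**Figure D5:**
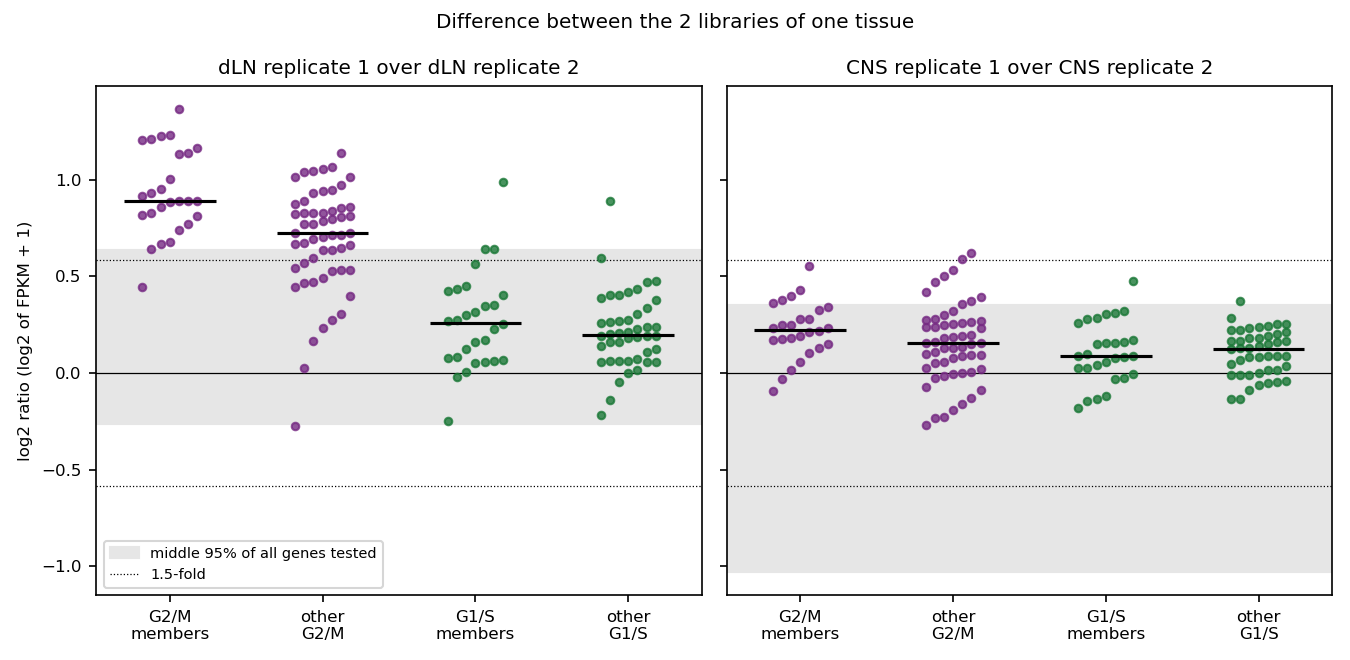
Log2 difference between the libraries of one tissue (y axis, log2(FPKM + 1) scale), dLN on the left and CNS on the right, for G2/M members, other G2/M genes, G1/S members and other G1/S genes, with a point per gene, a bar at the median, grey for the middle 95% of all genes and dotted lines at 1.5-fold. In the dLN panel the G2/M members have their median at 0.89 and the G1/S members at 0.26, and in the CNS panel these medians are 0.22 and 0.09.

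The direction of the G2/M class against CNS therefore turned on which dLN library was used. Without dLN replicate 1, 8 members were called higher in CNS (Ccna2, Ccnb2, Birc5, Cdca3, Tpx2, Nusap1, Cenpa and Mki67), none was called lower, and the median log2 ratio was 0.24, with 34.0% of all genes called higher and 31.2% lower in that fit. Without dLN replicate 2, 12 were called lower (Cdk1, Ccnb1, Aurka, Aurkb, Plk1, Bub1b, Cdc20, Ube2c, Cdca8, Kif20a, Cenpe and Foxm1) and 2 higher (Ccnb2 and Nusap1), and the median was -0.55, with 30.3% of all genes called higher and 31.8% lower. In these fits the lone dLN library is assumed to vary like the others. The mean of the CNS libraries lay between the dLN libraries for 16 of the 26 members, and dLN replicate 1 was the highest and dLN replicate 2 the lowest of all 4 libraries for 10. Ccnb2 and Nusap1 were called higher against either dLN library, with log2 ratios of 0.66 to 2.03 and 0.56 to 1.49, but neither was called without CNS replicate 1 (adjusted p = 0.236 and 0.208) or CNS replicate 2 (0.179 and 0.149), with no filter (0.119 and 0.099) or with the same FPKM sum (0.0629 and 0.0576).

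When each gene was set against the median G2/M member of its own library, the overall shift between the dLN libraries dropped out. This is a description, without a test, of log2(FPKM + 1) values minus that median. On this scale 11 members lay above and 11 below in CNS with no overlap between the tissues, and 4 overlapped. Nothing is read from these counts, since centring on the class fixes their balance and adds the spread of the class to every other gene, of which 64.3% did not overlap on this scale and 89.4% without it. Ccnb2 stood at 1.02 and 0.95 in CNS and at -0.25 and -0.69 in dLN, the widest gap upward. Nusap1 stood at 0.37 and 0.32 against -0.79 and -0.79, and Cdca3 at 0.64 and 0.63 against -0.11 and -0.40. Birc5, Mki67, Tpx2, Ccna2, Bub1, Top2a, Cenpa and Kif11 lay above by smaller margins (0.51 down to 0.18 on average). In the other direction, Ccnb1 stood at -0.37 and -0.36 in CNS and at 0.67 and 0.44 in dLN. Aurka stood at -0.82 and -0.64 against 0.12 and -0.15. Below by smaller margins were Cdk1 (-0.50), Plk1 (-0.46), Cdc20 (-0.45), Bub1b (-0.45), Ube2c (-0.36), Cdca8 (-0.30), Cenpe (-0.26), Kif20a (-0.18) and Aurkb (-0.10). The relative make-up of the mitotic mRNAs in CNS thus had more Ccnb2, Nusap1 and Cdca3 and less Ccnb1 and Aurka than in dLN, whichever dLN library was taken.

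Genes of replication outside the members moved in both directions. Of 44 tested genes, 19 (43.2%) were higher in CNS and 9 (20.5%) lower (median log2 ratio 0.27). Of all genes, 37.8% were higher and 37.2% lower, so the share of higher genes lay near that of all genes. The largest rise was that of Rpa1, a subunit of the single-strand binding protein RPA, at 64.4, 61.4, 17.1 and 12.4 FPKM (log2 ratio 2.04, limma adjusted p = 0.000374). The other RPA subunits rose as well, Rpa2 by 0.67 and Rpa3 by 0.82. Asf1b, a histone chaperone, had a log2 ratio of 1.27 and Atad2, an E2F target, one of 1.21. Among the lower genes, Cdca7, a target of Myc and E2F, was at 7.55, 7.04, 50.6 and 55.8 FPKM (log2 ratio -2.71, limma adjusted p = 8.95e-05). Ung, which removes uracil from DNA, had a log2 ratio of -1.56, and Pold2, a subunit of polymerase delta, one of -1.31. The catalytic subunit of that polymerase, Pold1, was higher (0.38), while Pold3 was lower (-0.34).

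Of the 55 tested mitotic genes outside the members, 5 (9.09%) were higher in CNS and 4 (7.27%) lower (median log2 ratio 0.09). Of all genes, 37.8% were higher and 37.2% lower. Pttg1 (securin, the inhibitor of separase) was at 46.6, 43.5, 7.99 and 7.82 FPKM, with equal dLN libraries (log2 ratio 2.37, limma adjusted p = 8.95e-05). Cdc25b, a phosphatase that activates Cdk1, had a log2 ratio of 1.68, and Racgap1, a cytokinesis factor, one of 1.42. Kif15, a spindle kinesin, was at 3.92, 3.66, 24.1 and 29.4 FPKM (log2 ratio -2.53, limma adjusted p = 0.000119). Bora, the activator of Plk1 by Aurora A, had a log2 ratio of -1.09, and Ccnf (cyclin F) one of -0.92. Pttg1 and Kif15 thus stood outside the dLN replicate difference that marked most mitotic genes.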

How the data were processed

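Effector CD4 cells from CNS and dLN were profiled in 2 libraries per tissue, made with an mRNA kit that does not mark strand, so that a gene and an overlapping antisense gene cannot be told apart. Reads were trimmed and mapped by the authors, and each tissue has 1 deposited table with the FPKM of 33819 RefSeq transcripts (mm10). The aligner and the program that made the FPKM are not given in the sources used here. The CNS header held both library names in 1 cell and was split at the space.

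FPKM was summed by gene symbol, leaving out 565 transcripts without a symbol (0.142% to 0.446% of the FPKM of a library). Depth was estimated from low FPKM values, of which 90.8% to 93.0% lay within 0.05 of a whole number of fragments. Genes whose mean reached 1 FPKM in 1 or both tissues were tested in R 4.3.3 with limma 3.58.1 on log2(FPKM + 1), using lmFit and eBayes (trend on), and p-values were adjusted by Benjamini-Hochberg over all 10634 genes at 0.05. The fit was tested on simulated data with 100 genes changed at each of 2 sizes. It recovered 49 at a log2 size of 1 and 90 at a log2 size of 2, with 4 false calls. A gene that was not called is therefore not shown to be unchanged. The simulation changed far fewer genes than were called in the data, so the share recovered in the data can differ. With 2 libraries per tissue, the smallest two-sided p of an exact permutation test is 0.333. Python 3.11.15 with pandas 2.3.3, numpy 2.4.6 and matplotlib 3.10.9 did the rest.

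Members and gene lists were chosen with earlier results of these data known, and lists are described by counts and medians. By rule, all 58 members are named with their values, and of each pathway list the 3 largest called changes in each direction, others only with their complex. Genes named beyond this rule in the Rb pathway (Rb1, Rbl1, Cdkn2b, Cdkn2c, Cdk6, E2f3, E2f4, E2f6 and Tfdp2) were chosen as relatives of those named, after their values were seen. Alternatives covered the pseudocount, the filter, 3 scalings, the highest transcript, eBayes without trend, a block for the replicate number, a minimum fold, the class of Mybl2 and each library left out.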

Additional observations from a re-analysis of the deposited data

How the results depend on the processing

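The count of called genes was 7968 (4168 when a 2-fold difference was also required, because fewer genes pass a second criterion). That minimum also left 11 members in place of 18, 6 G1/S members in place of 13 and 44 pathway genes in place of 77. Of the 26 G2/M members, 2 were called, against 0 with no filter, 1 with the same FPKM sum per library (Ccnb1, lower), 1 with eBayes without trend, and 5 with the replicate number as a block (2 higher and 3 lower, Cdk1, Ccnb1 and Bub1b); the cause was not tested. The block also called Rrm1, Rrm2 and Tyms higher, and the replicate differences of the tissues had a correlation of 0.0933 across genes, so the numbers do not show paired libraries. The same FPKM sum shifted the median log2 ratio of all genes by -0.17 and the same upper quartile by 0.12, with 3423 higher and 4522 lower, and 4468 higher and 3569 lower, in place of 4016 and 3952. Under the same sum these uncalled members changed sign: Cdc45 (-0.03), Gins2 (-0.02), Chaf1a (-0.02), Kif11 (-0.10), Cenpa (-0.07), Top2a (-0.03) and Mybl2 (-0.10). Under the same upper quartile it was Mcm2 (0.09), Mcm6 (0.05), Pcna (0.05) and Fen1 (0.10). A scaling moves all ratios by nearly the same amount, so only members with ratios near 0 could change sign.

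With each library left out in turn, counts ran from 6596 to 7363 for all genes, 15 to 27 for the members, 10 to 14 for G1/S, 0 to 14 for G2/M, 3 to 4 for the CDK regulators and 58 to 86 for the pathway genes. Log2 ratios that changed sign ran from -0.14 to 0.43 (Cdc45), -0.06 to 0.36 (Gins2), -0.18 to 0.12 (Fen1), -0.03 to 0.32 (Chaf1a), -0.33 to 0.81 (Ccna2), -0.64 to 0.22 (Aurkb), -1.18 to 0.05 (Plk1), -0.09 to 0.58 (Bub1), -1.08 to 0.14 (Ube2c), -0.00066 to 0.81 (Birc5), -0.40 to 0.55 (Kif11), -0.68 to 0.09 (Kif20a), -0.62 to 0.27 (Kif23), -0.28 to 0.86 (Tpx2), -0.32 to 0.57 (Cenpa), -0.87 to 0.13 (Cenpe), -0.53 to 0.21 (Cenpf), -0.07 to 0.82 (Mki67), -0.30 to 0.62 (Top2a), -0.58 to 0.06 (Foxm1) and -0.18 to 0.27 (Mybl2). None of these was called in the fit of all libraries.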

Other observations

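Genes that hold T cells in a resting state were examined beside the cell-cycle genes. The reason was that Cdkn1b, Cdkn2a, Cdkn2c and Cdkn2d, genes that encode CDK inhibitors, were higher in CNS, while Cdkn1a and Cdkn2b were not called. All 12 genes of the resting-state list were called by limma (74.9% of all genes were), with a median log2 ratio of 1.58. In CNS, 8 (66.7%) were higher and 4 (33.3%) lower, against 37.8% and 37.2% of all genes. Klf2, a factor of quiescence and of lymph node egress, was at 179, 216, 2.52 and 2.28 FPKM in CNS replicates 1 and 2 and dLN replicates 1 and 2. Il7r, the receptor for IL-7, had a log2 ratio of 3.82, and Btg2, an antiproliferative factor, one of 2.94. Foxp1 (-2.81), Bach2 (-2.81) and Slfn2 (-1.33), which are also known to keep T cells at rest, were lower in CNS. None of the 12 differed by 1.5-fold between the dLN libraries. Few of all genes did, with 3.03% at least 1.5-fold higher in dLN replicate 1 and 0.263% at least 1.5-fold lower.

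Targets of p53, the pathway that induces Cdkn1a, moved in both directions. Of 14 tested, 3 were higher in CNS and 7 lower (median log2 ratio -0.36), and the 71.4% called in all lay near the 74.9% of all genes. Bbc3 (Puma), which promotes apoptosis, was at 17.6, 24.5, 0.874 and 0.885 FPKM (log2 ratio 3.53, limma adjusted p = 0.000118), and Btg2, which is in both lists, and Ccng1 (0.95) were the other higher genes. The largest falls were those of Perp (-3.07), Sesn2 (-2.90) and Plk2 (-2.03). For Plk2 the CNS libraries themselves differed, at 6.68 and 15.9 FPKM.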
